A study of Mus musculus with 9 samples.

Results

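The transcription factors of the secretory acinar programme were followed in the irradiated submandibular gland of the mouse through 10 genes: Bhlha15, Xbp1, Spdef, Creb3l1, Creb3l2, Creb3l4, Foxc1, Sox10, Ehf and Elf5. They were chosen by name as regulators of acinar and secretory cells. Earlier results of these data were known when they and the gene lists below were chosen. Counts within them are therefore descriptive, also where the share of all genes stands beside them. All 10 were found among the 54532 Ensembl identifiers of the count table. RNA came from sections of submandibular glands of wild-type (WT) mice that had all received 10 Gy of radiation, 30, 60 or 90 days before collection, with 3 samples at each time point. Every group carried the irradiation, and the non-irradiated glands named in the protocol were not analysed here, so each comparison is between irradiated time points. The labels give no age, sex or harvest date, and time since irradiation cannot be told apart from the age of the mice. The samples are numbered without a statement that they were separate animals, so the p-values measure the spread between these samples.

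Acinar cells make saliva proteins in bulk and release them from granules. MIST1, the product of Bhlha15, is a basic helix-loop-helix factor that scales up the secretory machinery of exocrine cells, and XBP1 is the factor of the unfolded protein response that expands the endoplasmic reticulum after its transcript is spliced by the sensor IRE1 (Ern1). The CREB3L proteins are membrane-bound factors that are cut loose at the Golgi and switch on genes of vesicle transport. SPDEF, EHF and ELF5 belong to the ETS family of epithelial factors, SOX10 is found in salivary progenitors and acinar cells as well as in Schwann cells, and FOXC1 is a forkhead factor of epithelium and mesenchyme.

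Of the 10 genes, 4 passed a test between time points. At 60 against 30, 90 against 60 and 90 against 30 days 1, 1 and 2 passed, where 1.56%, 0.256% and 3.57% of all genes did. The regions before the start sites of the 4 are shown because these genes passed a test, and their courses contrasted. Bhlha15 and Creb3l2 stood highest at 60 days, while Spdef and Creb3l4 were lower at 90 than at 30 days. The sequences hold the 250 bases before the RefSeq start (GRCm38.p6), written 5′ to 3′ on the strand of the gene, with capitals marking matches to the motifs described next. RefSeq promoters were matched for 7 of the 10 genes, not for Creb3l1, Sox10 and Ehf. Of 3 listed starts of Creb3l4, the one at the GENCODE gene start is given. The other Creb3l4 starts and those of Xbp1, Foxc1 and Elf5 were also searched, and their matches are not given here.
Bhlha15 (chr5:144190036-144190285, plus strand): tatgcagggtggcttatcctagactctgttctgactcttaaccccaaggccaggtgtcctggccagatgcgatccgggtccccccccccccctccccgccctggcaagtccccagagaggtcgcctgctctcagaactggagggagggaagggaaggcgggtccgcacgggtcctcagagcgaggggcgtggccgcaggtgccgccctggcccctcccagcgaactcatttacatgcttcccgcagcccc
Creb3l2 (chr6:37442149-37442398, minus strand): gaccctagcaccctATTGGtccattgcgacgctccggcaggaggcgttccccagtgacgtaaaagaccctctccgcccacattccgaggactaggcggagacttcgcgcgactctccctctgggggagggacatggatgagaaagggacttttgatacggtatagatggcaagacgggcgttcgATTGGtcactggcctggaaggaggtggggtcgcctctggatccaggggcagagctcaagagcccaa
Spdef (chr17:27728952-27729201, minus strand): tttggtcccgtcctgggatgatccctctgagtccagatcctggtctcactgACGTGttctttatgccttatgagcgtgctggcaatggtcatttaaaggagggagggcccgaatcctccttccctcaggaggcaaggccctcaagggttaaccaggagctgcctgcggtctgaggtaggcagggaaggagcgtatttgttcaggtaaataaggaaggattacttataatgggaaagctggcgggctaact
Creb3l4 (chr3:90243513-90243762, minus strand): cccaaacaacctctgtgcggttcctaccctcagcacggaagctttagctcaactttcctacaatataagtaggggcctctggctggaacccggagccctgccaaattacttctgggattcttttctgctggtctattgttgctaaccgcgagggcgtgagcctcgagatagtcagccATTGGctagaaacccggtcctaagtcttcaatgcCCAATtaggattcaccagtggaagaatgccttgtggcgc
Motifs were searched on both strands: TGACGTGG (the unfolded protein response element, which contains the next motif), ACGTG (its core), the endoplasmic reticulum stress response element (which contains a CCAAT box), TGACGTCA (the cAMP response element), CATATG and CAGCTG (E-boxes), CCAAT (the CCAAT box) and GGAAGT (an ETS core). Spdef held a match to ACGTG, 195 bases before its start, and 16.6% of all 32851 promoters of the table held one. Creb3l2 held 2 CCAAT boxes, 232 and 62 bases before its start, and Creb3l4 held 2, at 69 and 35 bases, where 33.8% of all promoters held at least 1. A CCAAT box on the opposite strand reads ATTGG in these lines. The Bhlha15 stretch matched no motif of this search. The share of all promoters with a match was 0.563% for TGACGTGG, 0.113% for the endoplasmic reticulum stress response element, 1.55% for TGACGTCA, 3.46% for CATATG, 13% for CAGCTG and 19.7% for GGAAGT, and the 4 printed stretches held none of these.

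Libraries held 16541396 to 26065856 counts, and the 30-day libraries, at 17179500 or fewer, were shallower than every later library. Depth and time point therefore move together. With each library drawn down to 16541396 counts, 1, 1 and 2 of the 10 genes passed the threshold at 60 against 30, 90 against 60 and 90 against 30 days, the same numbers as at full depth. For any difference among the time points 3 passed, where 1 did at full depth. Mucl2, an acinar secretory product, took 31.35% to 42.76% of all counts. Scaling by library totals alone placed the median log2 difference of all genes at 0.05, 0.17 and 0.24 in these comparisons, where TMM (trimmed mean of M-values) scaling placed it at 0, 0 and 0.01. The 10 genes were covered by 230 to 13142 counts per library, and all 10 were among the 15224 genes tested. None of their exons overlapped an exon of another gene in GENCODE M21.

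Levels are given as CPM, read counts relative to the TMM-scaled library size, with samples 1, 2 and 3 in that order. Set per kilobase of exon, so that genes can be ordered, Xbp1, Bhlha15 and Creb3l1 stood above the other 7. Xbp1 averaged 112.9 CPM per kilobase over the 9 libraries (range 95.47 to 133.1), Bhlha15 111.9 (75.01 to 162.4) and Creb3l1 106.5 (77.16 to 137.0). These ranges overlapped each other, and none reached that of the next gene, Ehf, at 54.93 CPM per kilobase (46.01 to 65.59). Sox10 followed at 35.28, Spdef at 24.83, Foxc1 at 20.24, Elf5 at 16.59, Creb3l4 at 10.72 and Creb3l2 at 9.995 CPM per kilobase. From Sox10 to Creb3l2 the range of each gene overlapped that of the next. At 60 days Bhlha15 ranked first, at 146.1 CPM per kilobase (134.4 to 162.4), and its libraries lay clear of those of Xbp1 (95.47 to 118.9). At 30 and at 90 days it stood below Xbp1 and Creb3l1 in the mean, with ranges that overlapped that of Creb3l1.

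**Figure D1:**
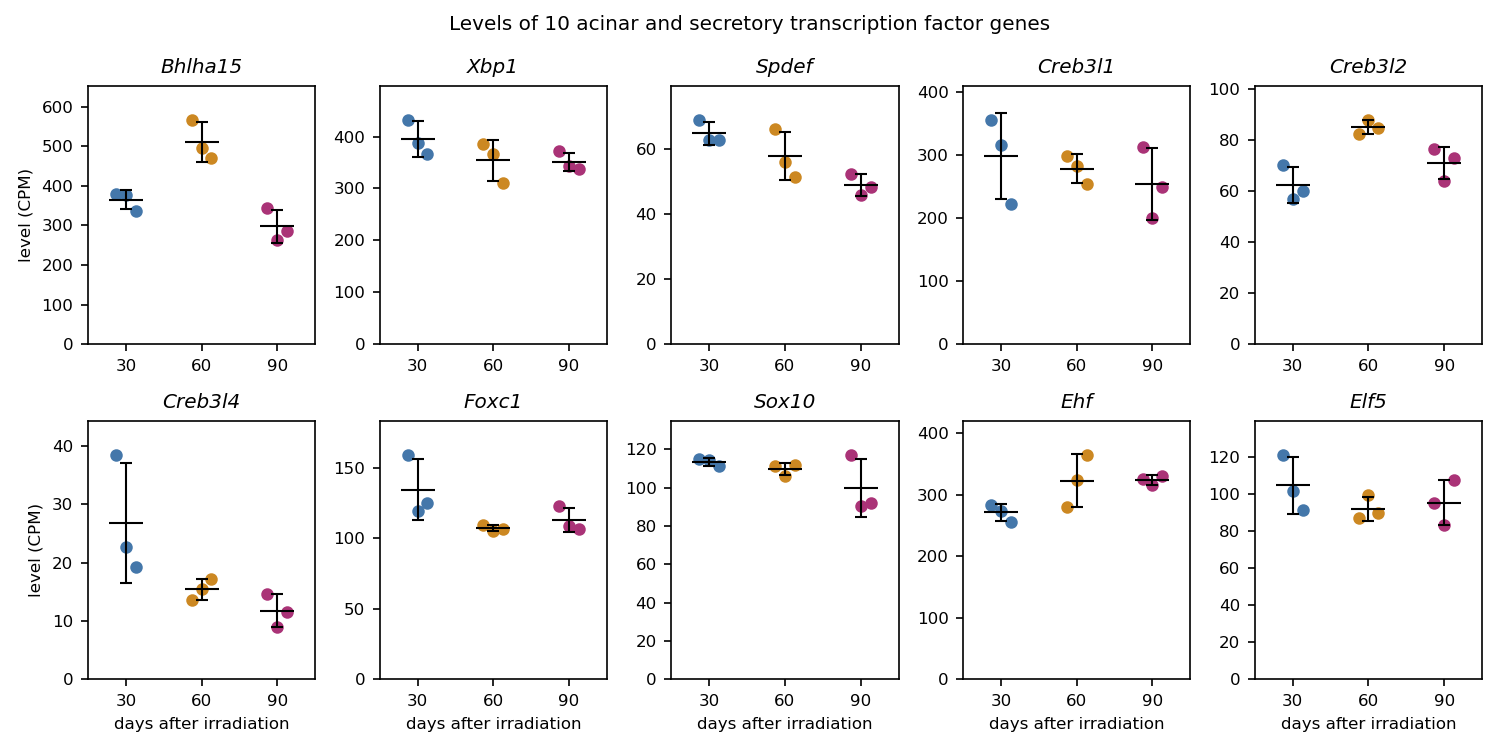
Levels of the 10 genes in CPM (vertical axis, from 0) at 30, 60 and 90 days after irradiation (horizontal axis). Points are libraries and bars are the mean ± SD of 3. Bhlha15 and Creb3l2 stood highest at 60 days, and the mean of Creb3l4 was 26.84 CPM at 30 days and 11.69 CPM at 90 days.

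The time points were compared by edgeR's quasi-likelihood test, with Benjamini-Hochberg adjustment over all 15224 genes and a threshold of 0.05. At 60 against 30 days 1 of the 10 genes passed (Creb3l2, higher), where 1.56% of all genes passed, 1.14% higher and 0.427% lower. At 90 against 60 days 1 passed (Bhlha15, lower), where 0.256% of all genes passed, 0.0920% higher and 0.164% lower. At 90 against 30 days 2 passed (Spdef and Creb3l4, both lower), where 3.57% of all genes passed, 1.81% higher and 1.77% lower. For any difference among the time points 1 passed (Bhlha15), where 3.29% of all genes passed. The median log2 difference of the 10 genes was -0.13, -0.13 and -0.21 in the pairwise comparisons, beside 0, 0 and 0.01 for all genes. At an unadjusted p under 0.05 the counts were 5, 3 and 5 of the 10, where 12.4%, 10.8% and 16.8% of all genes passed, and 5 of the 10 for any difference, where 16.7% did. These shares of all genes also stand beside the unadjusted counts of the gene lists below. Counts by other tools stand beside their own calls over all genes in the 3 pairwise comparisons. DESeq2 called 369, 141 and 860 genes, limma-voom 184, 30 and 469, and library totals alone 90, 28 and 440, where edgeR called 238, 39 and 544. The comparisons share libraries: both with 30 days use the 30-day samples, and both steps use the 60-day samples.

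At 60 against 30 days Bhlha15 and Creb3l2 were higher without overlap (8.65% of all genes were) and Creb3l4 and Foxc1 lower (8.22%). At 90 against 60 days none of the 10 was higher without overlap (8.30% of all genes were), and Bhlha15 and Creb3l2 were lower (7.64%). At 90 against 30 days Ehf was higher without overlap (11.4%), and Spdef and Creb3l4 were lower (11.8%).

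**Figure D2:**
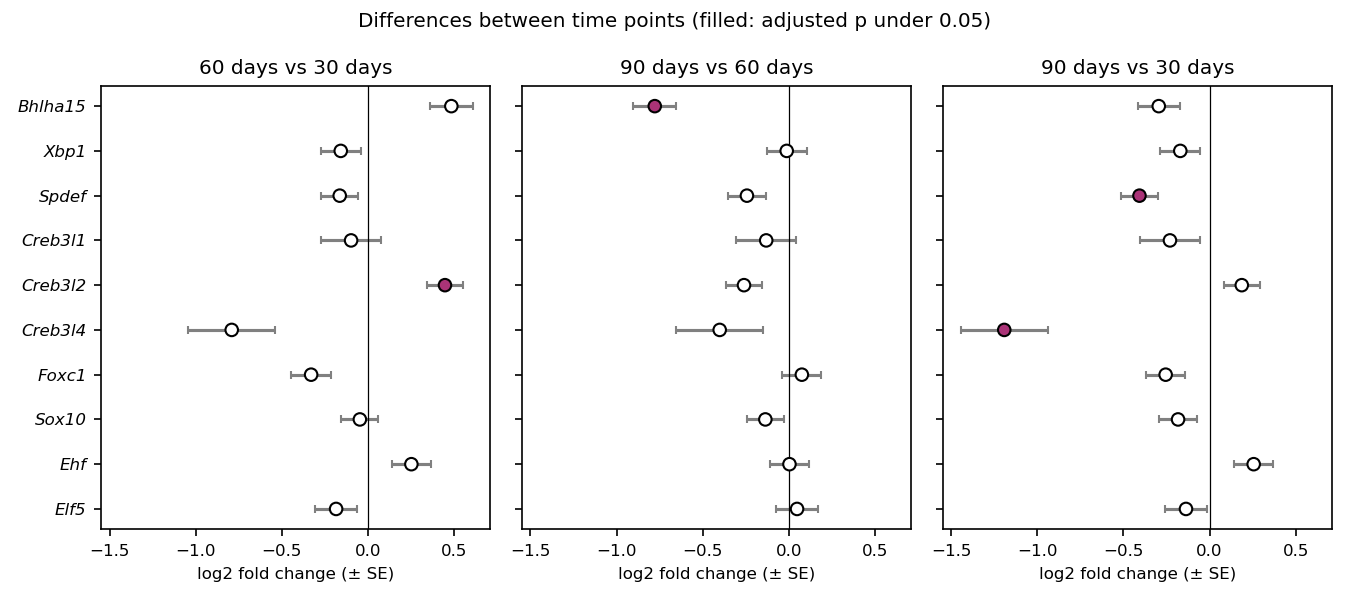
Log2 fold change (horizontal axis, later minus earlier time point, ± standard error) of the 10 genes in 3 comparisons of 3 libraries with 3. Filled points have an adjusted p under 0.05, which are Creb3l2 at 0.45, Bhlha15 at -0.78, Spdef at -0.41 and Creb3l4 at -1.19.

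Bhlha15 encodes MIST1, the acinar factor that drives granule and secretory machinery genes (ENSMUSG00000052271, chromosome 5, 144190286 to 144194441, plus strand, GRCm38, the build of all positions here). Its level was 379.7, 378.3 and 337.6 CPM in the 30-day libraries, 567.3, 494.7 and 469.8 in the 60-day and 344.4, 262.1 and 286.6 in the 90-day libraries. Every 60-day library stood above every other library, while the 30- and 90-day ranges overlapped because 90-day sample 1 exceeded 30-day sample 3. Between 60 and 90 days Bhlha15 fell by 0.78 on the log2 scale (standard error 0.12, adjusted p = 0.00581), to 0.583 of its 60-day level. Between 30 and 60 days the log2 difference was 0.48 (standard error 0.12, adjusted p = 0.0572), which did not pass by edgeR, although DESeq2 (adjusted p = 0.00528) and limma-voom (adjusted p = 0.0464) placed it past the threshold. At 90 against 30 days it was -0.29 (standard error 0.12, adjusted p = 0.23). The edgeR test for any difference gave an adjusted p of 0.00324. The call at 90 against 60 days was lost with library totals alone (-0.60, adjusted p = 0.13) and without 90-day sample 2 (-0.70, adjusted p = 0.062).

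Markers of the acinar cell were read beside this fall. Of 12 listed submandibular acinar genes, 10 had a log2 difference below 0 at 90 against 60 days, with a median of -0.28. By edgeR 0 of them passed and 6 had an unadjusted p under 0.05, where 10.8% of all genes did. DESeq2 called 3 of the 12 and limma-voom 1, where they called 141 and 30 of all genes. Pip, the gene of a secreted saliva protein, measured 14110 ± 2092 CPM at 60 days and 7635 ± 1868 CPM at 90 days (mean ± SD of 3 libraries), with a log2 difference of -0.89 (standard error 0.19, adjusted p = 0.0587). The summed level of the list, most of it Mucl2, ranged from 311900 to 463900 CPM at 60 days and from 273800 to 408200 CPM at 90 days. In whole-gland RNA fewer acinar cells and less transcript per acinar cell cannot be told apart, and the part of the acinar markers in the Bhlha15 result was not tested.

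Of 6 genes listed as MIST1 targets, 5 could be tested, and all 5 lay below 0 in each pairwise comparison. Of all genes 49.6%, 50.1% and 52.1% lay above 0 at 60 against 30, 90 against 60 and 90 against 30 days. The median log2 difference was -0.17 at 60 against 30 days, where Bhlha15 was higher without overlap, -0.19 at 90 against 60 days and -0.44 at 90 against 30 days. In the first step edgeR called 0, with 1 at an unadjusted p under 0.05, DESeq2 called 1 and limma-voom 0. In the second step edgeR called 0, with 1 at an unadjusted p under 0.05, and DESeq2 and limma-voom called 0. Across the whole interval 1 passed by edgeR, Copz2, a subunit of the COPI vesicle coat, and DESeq2 called 2 and limma-voom 1. Over that interval 3 of the 5 had an unadjusted p under 0.05 by edgeR. Of all genes 12.4%, 10.8% and 16.8% had one in the first step, the second step and the whole interval. Copz2 measured 104.5 ± 11.68 CPM in the 30-day libraries, 78.01 ± 10.11 in the 60-day and 68.43 ± 6.591 in the 90-day libraries (mean ± SD of 3 libraries). It fell by 0.61 on the log2 scale (standard error 0.12, adjusted p = 0.0062) between 30 and 90 days, a call lost with library totals alone (-0.39, adjusted p = 0.162) and without 90-day sample 2 (adjusted p = 0.0508). Rab3d, a GTPase of secretory granules, had a log2 difference of -0.34 (standard error 0.12, adjusted p = 0.147) over that interval, and the gap junction gene Gjb1 one of -0.44 (standard error 0.13, adjusted p = 0.0657). With library totals alone the medians of the list were -0.12, -0.02 and -0.20, where those of all genes were 0.05, 0.17 and 0.24.

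Xbp1, the transcription factor arm of the unfolded protein response (ENSMUSG00000020484, chromosome 11, 5520659 to 5525893, plus strand), measured 432.4, 386.6 and 365.9 CPM in the 30-day libraries, 386.2, 365.9 and 310.1 in the 60-day and 371.7, 343.0 and 338.4 in the 90-day libraries. The ranges overlapped between all time points. No comparison passed: the log2 difference was -0.16 (standard error 0.12, adjusted p = 0.637) in the first step, -0.01 (standard error 0.12, adjusted p = 0.986) in the second and -0.17 (standard error 0.12, adjusted p = 0.507) over the whole interval. Gene counts do not separate the spliced from the unspliced transcript, so the active form was not measured. Plasma cells also express Xbp1. The summed level of 8 plasma cell genes, with Igkc, Igha and Ighm the most abundant, ranged from 60.82 to 118.8 CPM in the 30-day libraries, from 63.63 to 78.21 in the 60-day and from 143.6 to 525.7 in the 90-day libraries. Its part in the level of Xbp1 was not tested.

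Genes of protein folding and translocation that XBP1 is known to switch on lay on both sides of 0. Of 20 targets, 15 lay above 0 at 60 against 30 days (median log2 difference 0.07), 8 at 90 against 60 days (median -0.06) and 12 at 90 against 30 days (median 0.10). With library totals alone the medians were 0.12, 0.10 and 0.32, where those of all genes were 0.05, 0.17 and 0.24. By edgeR 1 passed in the first and 1 in the last of these comparisons. At an unadjusted p under 0.05 the counts were 4, 3 and 9 of 20, where 12.4%, 10.8% and 16.8% of all genes passed. Hspa13, a chaperone of the HSP70 family, measured 27.92 ± 4.442 CPM at 30 days and 40.8 ± 2.401 CPM at 60 days (mean ± SD of 3 libraries) and rose by 0.54 on the log2 scale (standard error 0.12, adjusted p = 0.0297). That call was lost with library totals alone (adjusted p = 0.176) and without 30-day samples 1 or 3 or 60-day samples 2 or 3 (adjusted p = 0.0542 to 0.17). Creld2, an endoplasmic reticulum stress protein, measured 28.35 ± 1.432 CPM at 30 days and 42.27 ± 8.386 CPM at 90 days and rose by 0.57 on the log2 scale (standard error 0.13, adjusted p = 0.0171). Without 30-day samples 1 or 3 or 90-day samples 2 or 3 it did not pass (adjusted p = 0.0507 to 0.122). At 90 against 30 days DESeq2 called 5 of the 20 targets and library totals alone 4, where they called 860 and 440 of all genes.

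Among 10 genes of the stress sensors and their relatives 8 could be tested, and edgeR called 0 in each pairwise comparison, with 1 at an unadjusted p under 0.05 in each. DESeq2 called 0, 1 and 0, and limma-voom 0. Atf6, a membrane-bound sensor of the same stress response, measured 60.87 ± 2.407 CPM in the 30-day libraries, 77.46 ± 8.123 in the 60-day and 55.61 ± 1.808 in the 90-day libraries. Its 60-day libraries (71.43 to 86.69 CPM) stood above all others, as those of Bhlha15 and Creb3l2 did. It passed the edgeR test of any difference (adjusted p = 0.0212), and its log2 difference at 90 against 60 days was -0.48 (standard error 0.10, adjusted p = 0.0511). The call was lost with library totals alone (adjusted p = 0.287) and without 30-day sample 2, 60-day sample 2 or 90-day samples 2 or 3 (adjusted p = 0.0524 to 0.167). Ern1, which encodes IRE1, had a log2 difference of -0.32 (standard error 0.11, adjusted p = 0.114) at 90 against 30 days.

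Of the CREB3-like genes, Creb3l2 passed at 60 against 30 days, Creb3l4 at 90 against 30 days and Creb3l1 in no comparison. Differences between the genes were not tested. Creb3l1 (ENSMUSG00000027230, chromosome 2, 91982328 to 92024502, minus strand), the most abundant of them per kilobase and also a factor of collagen-secreting cells, measured 356.6, 316.2 and 222.9 CPM in the 30-day libraries, 298.7, 283.6 and 254.2 in the 60-day and 313.6, 200.8 and 249.3 in the 90-day libraries. Its libraries overlapped between all time points. The log2 difference was -0.10 (standard error 0.17, adjusted p = 0.876) in the first step, -0.13 (standard error 0.17, adjusted p = 0.849) in the second and -0.23 (standard error 0.17, adjusted p = 0.57) over the whole interval, and none passed. Of 7 fibroblast and stroma genes, whose summed level ranged from 335.3 to 554.3 CPM over all libraries, edgeR, DESeq2 and limma-voom called 0 in each comparison, with 2, 0 and 1 at an unadjusted p under 0.05 by edgeR.

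Creb3l2, which turns on coat protein genes of the secretory pathway (ENSMUSG00000038648, chromosome 6, 37327255 to 37442146, minus strand), measured 70.17, 56.88 and 60.09 CPM in the 30-day libraries, 82.27, 87.91 and 84.82 in the 60-day and 76.33, 63.9 and 72.79 in the 90-day libraries. All 60-day libraries lay above all others. Between 30 and 60 days it rose by 0.45 on the log2 scale (standard error 0.11, adjusted p = 0.0384), and between 60 and 90 days the log2 difference was -0.26 (standard error 0.10, adjusted p = 0.377). At 90 against 30 days it was 0.19 (standard error 0.11, adjusted p = 0.399). The rise lost its call without 30-day samples 2 or 3, 60-day samples 2 or 3, or 90-day sample 3 (adjusted p = 0.0559 to 0.218). It also did so with the 6 samples of the comparison alone (adjusted p = 0.0592) and with library totals alone (0.51, adjusted p = 0.157).

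Creb3l4, a CREB3-like gene also known from prostate and testis (ENSMUSG00000027938, chromosome 3, 90237500 to 90243512, minus strand), measured 38.56, 22.71 and 19.24 CPM in the 30-day libraries, 13.6, 15.51 and 17.23 in the 60-day and 14.6, 8.937 and 11.55 in the 90-day libraries. Every 30-day library stood above every later one, and 30-day sample 1 was the highest. Between 30 and 90 days it fell by 1.19 on the log2 scale (standard error 0.25, adjusted p = 0.0278), to 0.438 of its 30-day level, which was the largest difference in size among the 10 genes in the 3 pairwise comparisons. At 60 against 30 days the log2 difference was -0.79 (standard error 0.25, adjusted p = 0.204), which did not pass by edgeR, while DESeq2 called it (adjusted p = 0.0271). At 90 against 60 days it was -0.40 (standard error 0.25, adjusted p = 0.619). Without 30-day sample 1 the fall to 90 days was smaller and kept its call (-0.84, adjusted p = 0.0238), as with library totals alone (-0.93, adjusted p = 0.0117). The call was lost without any 1 of the 60-day samples (adjusted p = 0.0512 to 0.067), without 90-day samples 2 or 3 (adjusted p = 0.0991 and 0.106), and with the 6 samples of the comparison alone (adjusted p = 0.108).

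Of 14 vesicle transport genes listed as targets of the CREB3 family, edgeR called 0 in each pairwise comparison, with 2, 0 and 3 at an unadjusted p under 0.05. DESeq2 called 0, 0 and 1, and limma-voom 0. At 90 against 30 days 10 of the 14 lay below 0, with a median log2 difference of -0.13, beside 0.01 for all genes. With library totals alone these were 0.10 and 0.24. The Golgi matrix gene Golga2 had a log2 difference of -0.34 (standard error 0.10, adjusted p = 0.0595) over that interval, and Kdelr3, a receptor that returns proteins to the endoplasmic reticulum, one of -0.33 (standard error 0.14, adjusted p = 0.252).

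Spdef, an ETS factor of mucous and goblet cell differentiation (ENSMUSG00000024215, chromosome 17, 27714352 to 27728955, minus strand), measured 69.11, 62.71 and 62.87 CPM in the 30-day libraries, 66.13, 55.99 and 51.57 in the 60-day and 52.52, 45.85 and 48.39 in the 90-day libraries. The 90-day libraries all lay below the 30-day libraries, and the 60-day libraries overlapped both. Between 30 and 90 days it fell by 0.41 on the log2 scale (standard error 0.11, adjusted p = 0.0419), to 0.754 of its 30-day level. The steps had log2 differences of -0.16 (standard error 0.11, adjusted p = 0.587) and -0.24 (standard error 0.11, adjusted p = 0.435). The call was lost with library totals alone (-0.18, adjusted p = 0.522) and in 6 of 9 omissions of a single sample: each 30-day sample, 60-day sample 2 and 90-day samples 2 and 3 (adjusted p = 0.0628 to 0.202). Over the same interval 4 submandibular acinar genes of 12, Aqp5, Lpo, Chrm3 and Ano1, were also lower and 1, Pigr, was higher. The apical water channel Aqp5 fell by 0.57 on the log2 scale (standard error 0.12, adjusted p = 0.0113). With library totals alone 1 of the 12 acinar genes was called, so at most 1 of the 4 falls kept its call. The median log2 difference of the 12 was -0.44 with TMM and -0.20 with library totals alone. The part of these genes in the Spdef and Creb3l4 results was not tested.

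Of 8 genes listed for the SPDEF programme, 5 could be tested, and Tff3 had 0 counts in every library, which allows up to 0.101 to 0.213 CPM (3 counts per library). By edgeR 0 passed in each pairwise comparison, with 1 at an unadjusted p under 0.05 in each, DESeq2 called 0, 0 and 1, and limma-voom 0. Galnt12, a mucin-type glycosyltransferase, measured 5.297 ± 0.51 CPM at 30 days and 3.086 ± 0.5541 CPM at 90 days (mean ± SD of 3 libraries), a log2 difference of -0.79 (standard error 0.23, adjusted p = 0.0595). Fcgbp, a mucus-associated protein gene, had one of -0.72 (standard error 0.28, adjusted p = 0.348) at 90 against 60 days. Of 5 sublingual acinar genes 3 could be tested, and the summed level of the 5 ranged from 0.4962 to 14.99 CPM over all libraries. By edgeR 0 passed in each pairwise comparison, with 0, 1 and 2 at an unadjusted p under 0.05, and DESeq2 and limma-voom called 0. The median log2 differences of the 3 were 1.86, 1.29 and 2.28 at 60 against 30, 90 against 60 and 90 against 30 days. In the first of these comparisons 2 lay above 0 and 1, Muc19, below. The mean of the mucin gene Muc19 was 0.2214, 0.1565 and 0.7471 CPM at the successive time points, that of Dcpp1 0.8737, 3.635 and 4.398 CPM and that of Dcpp3 0.3474, 1.293 and 3.171 CPM. The libraries of a time point were far apart: at 90 days Dcpp1 ranged from 1.079 to 7.597 CPM and Dcpp3 from 0.3034 to 6.6 CPM. At 30 and 60 days the Muc19 means lay near the level of 3 counts. The part of these sublingual genes in the level of Spdef was not tested.

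The other ETS genes, Ehf and Elf5, are neighbours on chromosome 2, 108409 bases apart, with no protein-coding gene between them. Ehf, a factor of duct and barrier epithelium (ENSMUSG00000012350, chromosome 2, 103263433 to 103303278, minus strand), measured 283.5, 274.4 and 256.6 CPM in the 30-day libraries, 279.5, 324.7 and 365.7 in the 60-day and 325.7, 316.0 and 330.8 in the 90-day libraries. Its 90-day libraries all exceeded its 30-day libraries, and the log2 difference of 0.26 (standard error 0.11, adjusted p = 0.259) did not pass. In the first step it was 0.25 (standard error 0.11, adjusted p = 0.365). Duct cell genes were read beside it. By edgeR 4 of 12 were higher at 60 than at 30 days and 4 at 90 than at 30 days, among them Egf and the kallikrein gene Klk1b9, which has close paralogs. Egf, a growth factor of granular ducts, had log2 differences of 2.14 (standard error 0.26, adjusted p = 0.00129) and 2.09 (standard error 0.26, adjusted p = 0.00077). For Klk1b9 they were 1.92 (standard error 0.27, adjusted p = 0.00396) and 1.89 (standard error 0.27, adjusted p = 0.0028), and the first was lost with library totals alone (adjusted p = 0.0884) and without 60-day sample 1. Klk1, the most abundant of the 12, did not pass, with 0.23 (standard error 0.17, adjusted p = 0.655) and 0.03 (standard error 0.17, adjusted p = 0.956). The summed level of the 12, most of it Klk1, ranged from 19080 to 24850 CPM in the 30-day libraries, from 32090 to 37870 in the 60-day and from 27500 to 35570 in the 90-day libraries. Their part in the level of Ehf was not tested.

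Elf5, a factor of mammary and salivary secretory cells (ENSMUSG00000027186, chromosome 2, 103411688 to 103450989, plus strand), measured 121.5, 101.7 and 91.41 CPM in the 30-day libraries, 87.19, 99.58 and 89.83 in the 60-day and 95.47, 83.15 and 107.5 in the 90-day libraries. Its ranges overlapped throughout. The log2 difference was -0.19 (standard error 0.12, adjusted p = 0.581) in the first step, 0.05 (standard error 0.12, adjusted p = 0.929) in the second and -0.14 (standard error 0.12, adjusted p = 0.637) over the whole interval, and none passed.

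Sox10, a factor of progenitors and of the neural crest (ENSMUSG00000033006, chromosome 15, 79154908 to 79165240, minus strand), measured 114.8, 114.2 and 111.2 CPM in the 30-day libraries, 111.5, 105.9 and 111.8 in the 60-day and 117.3, 90.54 and 91.76 in the 90-day libraries. The 90-day samples 2 and 3 lay below all other libraries and 90-day sample 1 above all others. No comparison passed, with a log2 difference of -0.18 (standard error 0.11, adjusted p = 0.426) at 90 against 30 days. The summed level of 7 Schwann cell and nerve genes ranged from 44.34 to 50.56 CPM in the 30-day libraries, from 39.63 to 41.81 in the 60-day and from 38.6 to 46.27 in the 90-day libraries. Their part in the level of Sox10 was not tested.

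Foxc1 (ENSMUSG00000050295, chromosome 13, 31806633 to 31812476, plus strand) measured 159.7, 119.7 and 124.9 CPM in the 30-day libraries, 109.3, 105.1 and 107.0 in the 60-day and 122.8, 109.0 and 106.9 in the 90-day libraries. The 60-day libraries were close together and all below the 30-day libraries, while the log2 difference of -0.33 (standard error 0.11, adjusted p = 0.204) did not pass. At 90 against 60 days it was 0.08 (standard error 0.11, adjusted p = 0.867), and at 90 against 30 days -0.25 (standard error 0.11, adjusted p = 0.261).

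Further lists held relatives of the 10 genes and other gland regulators. Among 16 relatives, which include the Id genes that block basic helix-loop-helix factors, edgeR called 0 in each pairwise comparison. At an unadjusted p under 0.05 the counts were 5, 4 and 6, where 12.4%, 10.8% and 16.8% of all genes passed. DESeq2 called 1 in each and limma-voom 0. Id3 had an edgeR adjusted p of 0.0447 for any difference, with its lowest mean at 60 days (3.43 CPM, against 4.943 CPM at 30 days and 7.396 CPM at 90 days). That call was lost by limma-voom (adjusted p = 0.0795), with the libraries drawn down to 1 depth (adjusted p = 0.128) and in 7 of 9 omissions of a sample, all except 30-day sample 3 and 90-day sample 3 (adjusted p = 0.0706 to 0.224). Id2 had a log2 difference of -0.40 (standard error 0.11, adjusted p = 0.0851) at 60 against 30 days.

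Among 16 other regulators of acinar and gland cells 11 could be tested, and Foxa2 and Hmga2 were at 0 in every library. At 60 against 30 days 10 of the 11 lay below 0 (median log2 difference -0.32), and 1 passed by edgeR. At 90 against 60 days 8 of the 11 lay above 0 (median 0.14), where edgeR, DESeq2 and limma-voom called 0. Between 90 and 30 days 6 of the 11 lay below 0 (median -0.02), and 2 passed by edgeR. Under library totals alone the medians were -0.26, 0.32 and 0.20, beside 0.05, 0.17 and 0.24 for all genes. At an unadjusted p under 0.05 the counts were 7, 4 and 3 of 11, where 12.4%, 10.8% and 16.8% of all genes passed. The ETS gene Etv1 measured 176.8 ± 27.23 CPM in the 30-day libraries, 122.6 ± 4.324 in the 60-day and 123 ± 15.2 in the 90-day libraries. It fell by 0.53 on the log2 scale (standard error 0.12, adjusted p = 0.0297) in the first step and stood lower by 0.52 (standard error 0.12, adjusted p = 0.0183) at 90 than at 30 days. With library totals alone neither call held (-0.46, adjusted p = 0.238 and -0.29, adjusted p = 0.296). The first was also lost without 30-day samples 1 or 2, any 60-day sample or 90-day sample 3 (adjusted p = 0.0504 to 0.182), and the second without 30-day sample 1 or 90-day samples 2 or 3 (adjusted p = 0.0719 to 0.129). Tfap2b, an AP-2 factor, fell by 0.55 on the log2 scale (standard error 0.13, adjusted p = 0.0217) between 30 and 90 days, a call lost with library totals alone (-0.33, adjusted p = 0.264) and without 30-day samples 1 or 2 or 90-day sample 2 (adjusted p = 0.0627 to 0.143).

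Over all these lists of targets, sensors, relatives and regulators, 78 of 89 genes could be tested. By edgeR 1 was higher and 1 lower at 60 than at 30 days, and 1 higher and 3 lower at 90 than at 30 days, which makes 2 and 4 in all. DESeq2 called 4 and 13 of the 78 in these comparisons, limma-voom 2 and 4, and library totals alone 0 and 5. Of all genes edgeR called 238 and 544, DESeq2 369 and 860, limma-voom 184 and 469, and library totals alone 90 and 440. At 90 against 60 days edgeR called 0 of the 78, DESeq2 2, limma-voom 0 and library totals alone 1. Of all genes they called 39, 141, 30 and 28. At an unadjusted p under 0.05 the counts were 21, 14 and 26 of 78 at 60 against 30, 90 against 60 and 90 against 30 days, where 12.4%, 10.8% and 16.8% of all genes passed.

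**Figure D3:**
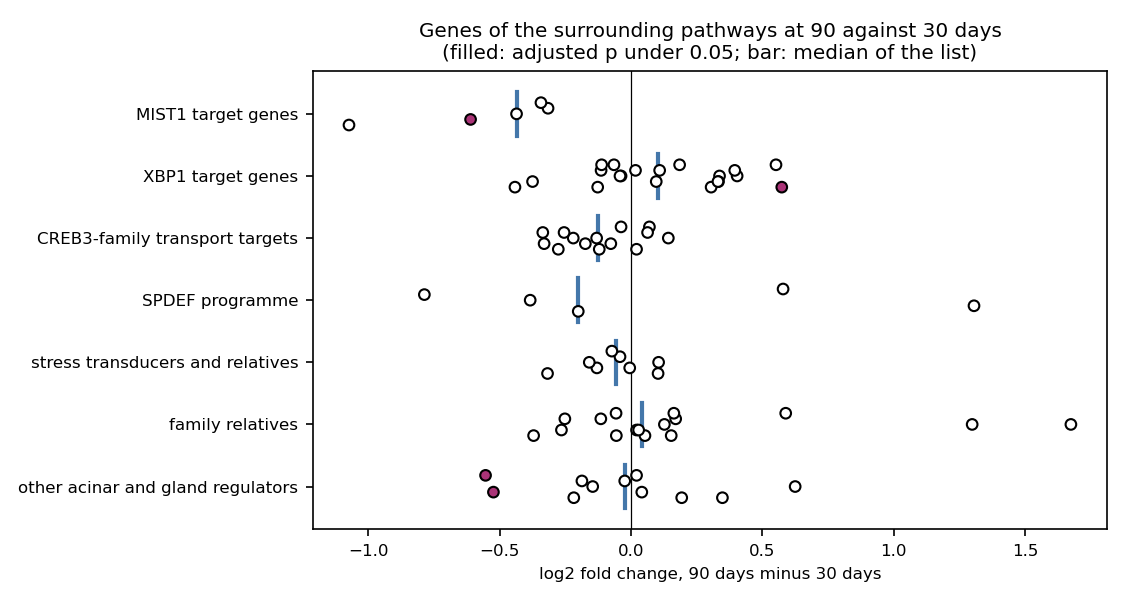
Log2 fold change at 90 against 30 days (horizontal axis) of each tested gene in 7 lists around the 10 factors (vertical axis). Filled points have an adjusted p under 0.05 and bars are medians. The MIST1 target list has the lowest median, at -0.44, and Copz2 is its filled point.

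Over the 9 libraries 30 of the 45 pairs among the 10 genes had a Pearson correlation of log2 CPM (prior count 2) above 0. Creb3l4 with Foxc1 (r = 0.82), Xbp1 with Spdef (r = 0.79) and Spdef with Creb3l4 (r = 0.78) were highest, and Ehf ran against Spdef (r = -0.76) and Xbp1 (r = -0.70). Bhlha15 and Creb3l2 correlated at 0.63, and Bhlha15 and Xbp1 at 0.16. These values describe libraries that share time points, scaling and tissue composition.

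**Figure D4:**
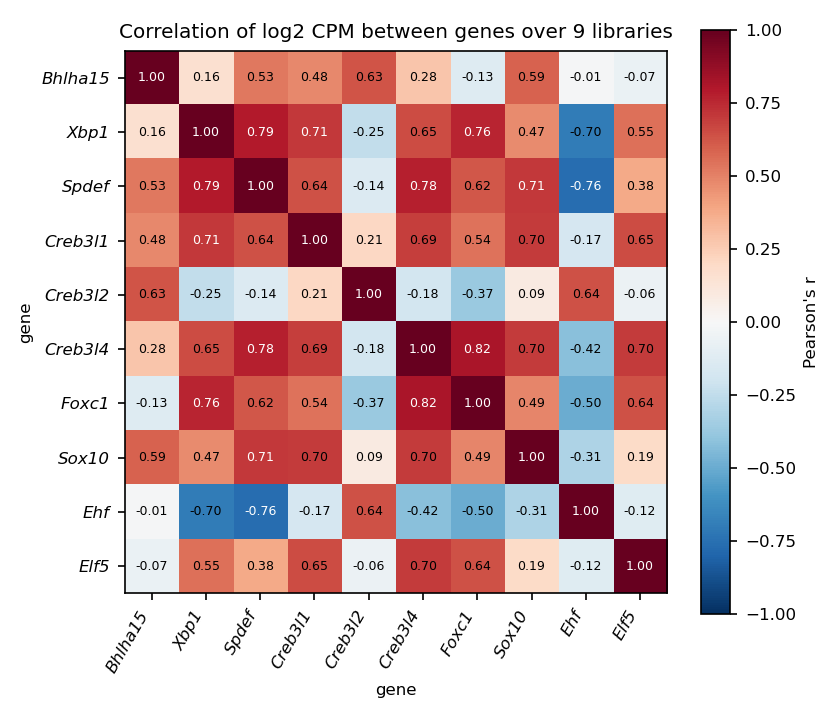
Pearson correlation of log2 CPM over 9 libraries for each pair of the 10 genes (both axes, colour scale from -1 to 1). Ehf is negative with the other genes except Creb3l2 (0.64), down to -0.76 with Spdef.

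The genes most like the 4 that passed were sought among 7421 genes of at least 10 CPM, by the same correlation over 9 libraries. Bhlha15 was most like Cpt1a, Dusp5 and Lmtk2 (r = 0.96, 0.96 and 0.95). Dusp5, a phosphatase of the MAP kinase ERK, measured 14.09 to 16.66 CPM in the 30-day libraries, 30.57 to 32.88 in the 60-day and 8.132 to 14.63 in the 90-day libraries. Creb3l2 was most like Trim2, Mfsd4a and Lars2 (r = 0.98, 0.95 and 0.94), Spdef like Coq9, Ngef and Bckdk (r = 0.99, 0.98 and 0.98), and Creb3l4 like Satb1, Magi3 and Fry (r = 0.98 each). Fry measured 92.89 to 144.3 CPM in the 30-day libraries, 74.8 to 85.49 in the 60-day and 49.7 to 62.6 in the 90-day libraries.

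**Figure D5:**
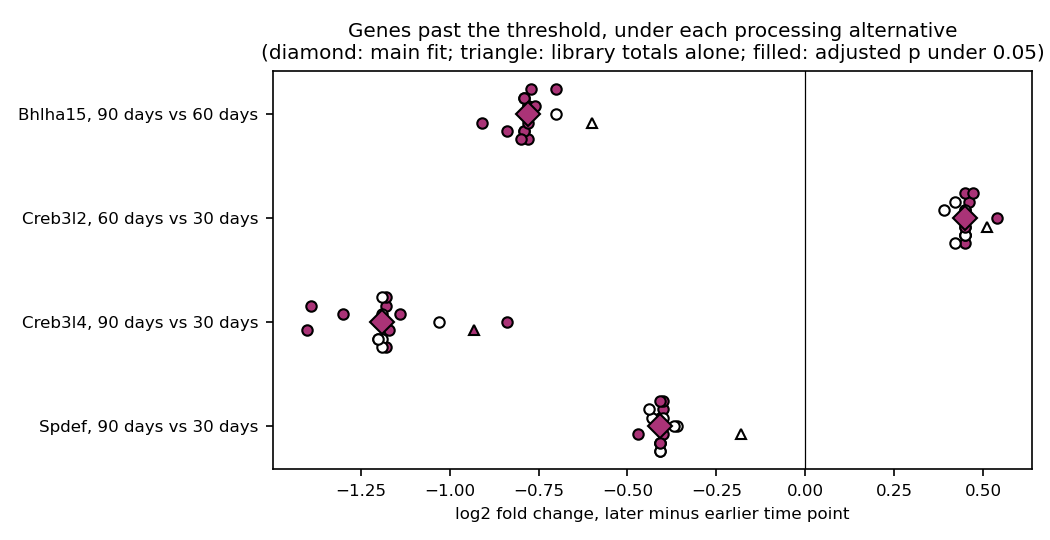
Log2 fold change (horizontal axis) of the 4 genes past the threshold, each in the comparison named on the vertical axis, in the reported fit (diamond) and under 18 alternatives (circles, and a triangle for library totals alone). All points of a gene lie on 1 side of 0. Open points have lost the adjusted p under 0.05, which are 2 for Bhlha15, 7 for Creb3l2, 6 for Creb3l4 and 7 for Spdef.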

How the data were processed

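RNA-seq counts of 9 libraries, made with a SMARTER mRNA-seq kit per the labels' protocols, were analysed. The authors deposited raw read counts for 54532 Ensembl gene identifiers. The submitters' processing notes name fastp, STAR, featureCounts and the build mm10, and their settings, strand use and annotation are not given in the sources used here. A further 3 value columns match no sample and were not used. The members and the gene lists were chosen with earlier results of these data known.

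Symbols and positions came from GENCODE M21 (GRCm38). Genes were filtered with filterByExpr (minimum count 10), scaled by TMM and fitted together by time point with edgeR 4.0.16 (quasi-likelihood, robust) in R 4.3.3, with Benjamini-Hochberg adjustment over 15224 genes and a threshold of 0.05. On simulated data for 90 against 30 days with 15224 genes, 95% of differences of 2 and 67% of differences of 1 on the log2 scale were recovered, and 7.43% of calls were unchanged genes. The 200 changed genes were drawn above a minimum mean count. Differences below 1, the size of those called for Bhlha15, Creb3l2 and Spdef, were not simulated. A level of 3 counts is 0.101 to 0.213 CPM, which covers counting error only. The rule for named genes took the 10 genes, up to 6 called genes of each pathway list or else the 2 of lowest p, the 3 most abundant genes of each cell type list, and the 3 most correlated genes of each member that passed. Of the cell type genes it took, those printed were chosen after their values were seen, and the others are given only within the summed levels and counts or not printed. Rab3d, Gjb1, Aqp5, Lpo, Chrm3, Ano1, Pigr, Tff3, Foxa2 and Hmga2 were added after their values were seen. Alternatives used DESeq2 1.42.0, limma 3.58.1 (voom), other scalings, filters and sample sets.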

Additional observations from a re-analysis of the deposited data

How the results depend on the processing

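The 4 pairwise calls among the 10 genes kept their direction under all 18 alternatives run for each. Their libraries did not overlap between the compared time points, so leaving out 1 sample could hardly change the direction. The call itself was lost in 2 of 18 for Bhlha15, 7 for Creb3l2, 6 for Creb3l4 and 7 for Spdef. The Bhlha15 call for any difference was kept in 17 of 17 (adjusted p up to 0.0301). Against 238, 39, 544 and 501 genes called at 60 against 30, 90 against 60, 90 against 30 days and for any difference, DESeq2 called 369, 141, 860 and 847, and no filter on low counts 459, 354, 1045 and 1194. Library totals alone called 90, 28, 440 and 277, with a split of 406 higher and 34 lower at 90 against 30 days (275 and 269 with TMM) and of 19 and 9 at 90 against 60 days (14 and 25 with TMM). Of the 10 genes, library totals alone called 0, 0, 1 and 2, and for 60 against 30 days DESeq2 called 3, limma-voom 2, no filter 3 and the 6 samples of the comparison alone 0. The 6 samples alone called 1 at 90 against 30 days. For any difference DESeq2, no filter, at least 10 counts in every sample and the drawn-down libraries (added after seeing the data) each called 3. The cause was not tested.

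Leaving out 1 sample gave 73 to 244, 16 to 103, 184 to 703 and 220 to 683 genes called in the same order, and 0 to 2, 0 to 1, 0 to 2 and 1 to 2 of the 10 genes. The lowest of these counts of all genes came without 60-day sample 2, 90-day sample 2, 30-day sample 1 and 30-day sample 1, and the 103 at 90 against 60 days without 60-day sample 3.

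Sample numbers showed no clear pairing of the libraries. Same-number correlations ran from -0.06 to 0.19, with 1 of 9 over 0.1, and 1 sample had its highest 2 correlations with its own number. With 3 samples per time point these correlations cannot show that the libraries are unpaired. With the number as a replicate block 270, 92, 717 and 609 genes were called, where 238, 39, 544 and 501 were without it. Of the 10 genes the block called 2, 1, 2 and 3.

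Of 540 log2 differences of the 10 genes under alternatives, 22 changed sign, 0 of them with an adjusted p under 0.05. With library totals alone Sox10 was 0.01 at 60 against 30 days, Xbp1 0.17, Creb3l1 0.05 and Sox10 0.04 at 90 against 60 days, and Xbp1 0.07, Creb3l1 0.01, Sox10 0.05 and Elf5 0.09 at 90 against 30 days. Ehf at 90 against 60 days was just below 0 (0 when rounded) with size factors, DESeq2, no filter and the 6 samples alone. Omissions of a sample moved the following: Creb3l1 at 60 against 30 days ranged from -0.27 to 0.05, Xbp1 at 90 against 60 days ranged from -0.11 to 0.05, Creb3l1 at 90 against 60 days ranged from -0.32 to 0.01, Ehf at 90 against 60 days ranged from -0.09 to 0.09 and Elf5 at 90 against 60 days ranged from -0.05 to 0.13. The cause was not tested.

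Limits are the 3 samples per time point and depth that differs between 30 days and later.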
